A study of Canis lupus familiaris with 58 samples.

Results

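The NF-kB subunits NFKB1, NFKB2, REL, RELA and RELB, the inhibitors NFKBIA, NFKBIE and NFKBIZ, and the adaptor pair BCL10 and MALT1 were followed in B-cell lymphomas of 58 pet dogs, 1 array per dog, sampled before treatment. These 10 genes, of 15115 with a symbol of their own on the Affymetrix canine array, were chosen by symbol. Each was read from the 1 of its probe sets with the highest mean over all dogs, and together they had 16 probe sets. All values are log2 expression (RMA), so a difference of 1 is a doubling. By the labels' status for IGHV, the variable gene of the immunoglobulin heavy chain, 26 dogs were static, 27 were ongoing and 5 were ND, a code that is not explained. Fine needle aspirates came from 19 dogs, whose diagnosis was unknown, and lymph node tissue from 39 dogs, with marginal zone lymphoma (MZL) in 7 and diffuse large B-cell lymphoma (DLBCL) in 32. Progression-free survival (PFS) was recorded in 55 dogs with 47 events and overall survival (OS) in 56 dogs with 41 events, in a time unit that was not stated. Of the markers behind the B-cell label, MS4A1 averaged 12.60 ± 0.92 (SD, n = 58), CD79B 10.87 ± 1.05, CD22 8.68 ± 0.92 and PAX5 7.21 ± 0.13. Of the T-cell markers, CD3D had the highest mean, 12.73 ± 0.82, and CD28 the lowest, 5.99 ± 0.37, with CD3E at 9.49 ± 0.30. RNA of other cells was thus present too. Brightness differs between probe sets, so these levels do not compare the amounts of B-cell and T-cell RNA. In such bulk samples fewer cells of a type and less RNA per cell cannot be told apart.

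NF-kB proteins are transcription factors that act as pairs of subunits. In the canonical route, a signal from the B-cell receptor passes through BCL10 and MALT1 to the IKK kinases, which mark the inhibitor NFKBIA for destruction and so free RELA, REL and NFKB1. In the alternative route, receptors such as CD40 stabilise the kinase MAP3K14, which leads to processing of NFKB2 and frees its partner RELB. NFKBIA, RELB and NFKB2 are themselves known target genes of NF-kB, and in human DLBCL the pathway is known for its constant activity in tumours that resemble activated B cells. The array measured RNA only, while the pathway is controlled largely through the location and decay of its proteins.

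The members differed in how much they varied between dogs. REL, a subunit best known from lymphoid cells, ran from 6.39 through a median of 7.88 to 9.92, an 11.6-fold range with an SD of 0.74, above the SD of 95.7% of all genes. BCL10, the adaptor that binds MALT1, covered a 9.95-fold range (7.73 to 11.04, median 10.36), but its lowest value came from 1 aspirate described below. NFKB2, the precursor of the p52 subunit, had a 9.58-fold range (7.85 to 11.11, median 9.71). NFKBIE, the inhibitor IkB-epsilon, varied least, from 7.25 to 8.34 with an SD of 0.22, against a median SD of 0.25 over all genes. NFKB1, the precursor of the p50 subunit, had an SD of 0.25 (10.31 to 11.86). The 3 strata of aspirate, MZL and lymph node DLBCL held at most 9.52% of a member's variance, which was that of REL. The aspirates had no known diagnosis and formed 1 stratum, so the share held by diagnosis was not measured. The plot of each member by IGHV status shows the overlap of all groups.

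**Figure D1:**
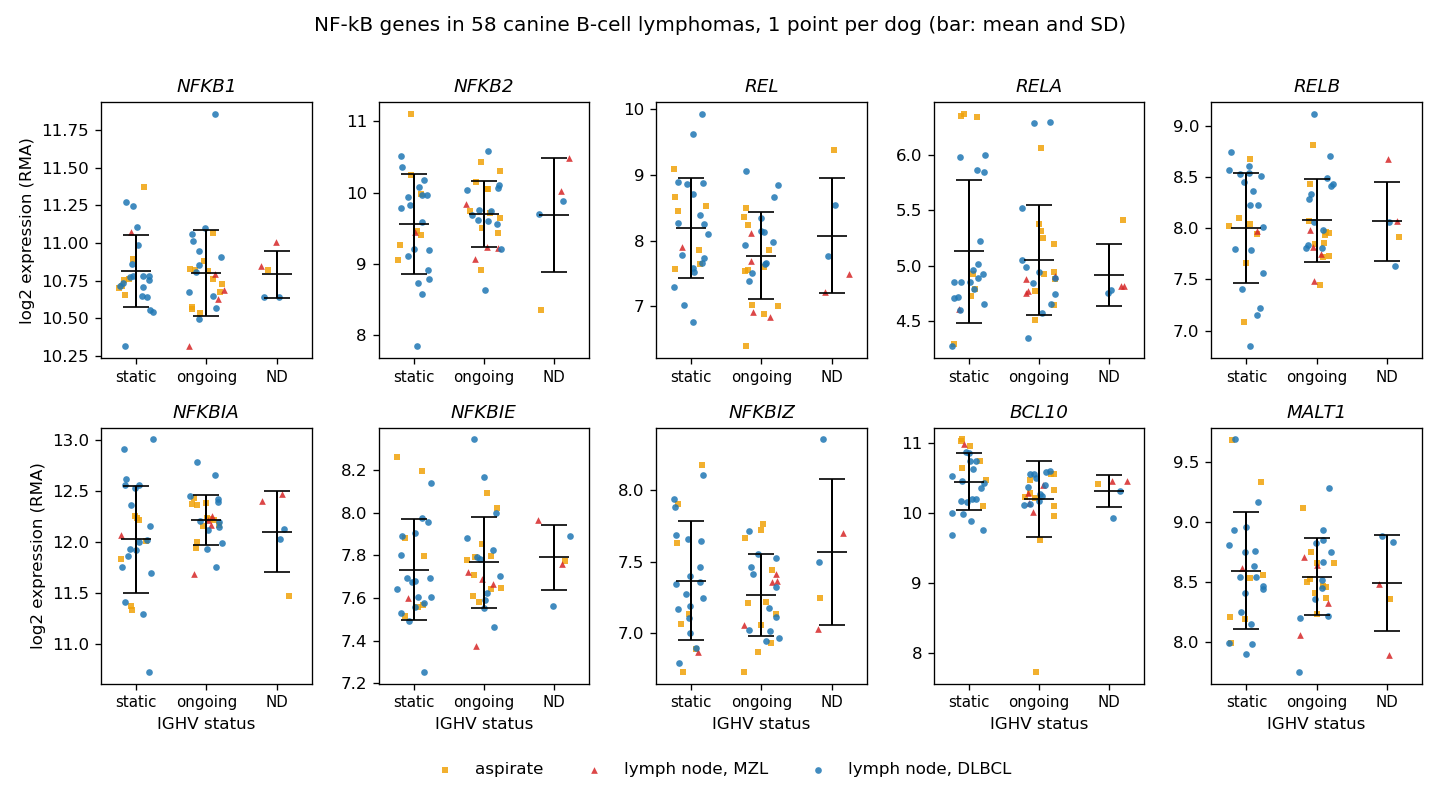
Log2 expression (RMA, y axis) of the 10 NF-kB genes in each dog, by IGHV status (x axis: 26 static, 27 ongoing and 5 ND dogs). Points are dogs, marked by specimen and diagnosis, and bars give the mean and SD; the groups overlap for every gene, and 1 ongoing aspirate lies at 7.73 for BCL10.

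RELA, the main activating subunit of the canonical route, had a weak signal. Its values ran from 4.27 through a median of 4.88 to 6.38, and its mean of 5.07 lay below the median of 17 tag control probe sets (5.30, range 3.85 to 6.52), although brightness differs between probe sets for reasons other than RNA amount. Its values fell on both sides of a gap, with 48 dogs at 5.52 or lower and 10 dogs at 5.85 or higher. The 10 higher dogs were 3 static and 1 ongoing aspirates and 4 static and 2 ongoing lymph node DLBCL. RELA correlated with the mean of the tag controls over the 58 dogs at r = -0.59 (rho -0.52, permutation p 1e-05, the smallest that 100000 permutations can give). REL did so at r = -0.50 (rho -0.47, permutation p 3e-05). Without the 2 dogs farthest from the median of the tag control mean, r was -0.55 for RELA and -0.43 for REL. Both passed among 30 relations of members to array measures (adjusted p 0.00030 and 0.00045), so their called pairs with other members are also given with the tag control mean in the fit. For all other genes, only the share called with the tag control mean in the fit is given below, so their nearest genes are shown without it. Their group differences and hazard ratios were not fitted with it.

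Some arrays stood apart. The lowest mean correlations with the other arrays were 0.941 in an ongoing aspirate and 0.952 in a static aspirate, against a median of 0.972. The gap between 3' and 5' control probes of GAPDH and actin (3' minus 5' difference), which widens as RNA degrades, was 1.95 in that ongoing aspirate and 3.77 in a static lymph node sample, against a median of 0.43 and a next value of 0.81. The ongoing aspirate held the lowest BCL10 value (7.73), and the static lymph node sample the lowest RELA (4.27) and RELB (6.84) values. Array medians lay between 7.08 and 7.20, and the number of arrays limits the precision.

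The clearest pattern among the members was a positive relation of the inhibitor NFKBIA with RELB and, on 1 of its 2 probe sets, with NFKB2, the pair of subunits of the alternative route. NFKBIA ran from 10.73 through a median of 12.16 to 13.00, RELB from 6.84 through 8.00 to 9.12. The dog with the lowest NFKBIA (10.73, a static lymph node DLBCL) had the lowest NFKB2 (7.85) and a RELB of 7.80, and the dog with the highest NFKBIA (13.00, also a static lymph node DLBCL) had 10.08 for NFKB2 and 8.52 for RELB. Over the 58 dogs RELB and NFKBIA correlated at r = 0.60 (rho 0.60, permutation p 2e-05 and 1e-05), with r = 0.46 in aspirates and 0.64 in lymph node. NFKB2 and NFKBIA also correlated at r = 0.60 (rho 0.51, permutation p 1e-05 and 9e-05), with 0.49 in aspirates and 0.67 in lymph node. Without the 2 dogs farthest from the median of RELB, or of NFKB2, these values were 0.60 and 0.53. For every pair of members the 2 farthest dogs are those of the member named first.

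To set these relations against the whole array, each gene was regressed on each member with the stratum as a covariate (limma, Benjamini-Hochberg adjustment over 15114 genes), and a pair of members was called where the adjusted p was under 0.05 in both directions. Of 45 pairs, 5 were called. The share of all genes called with a member, the background for these counts, was 7.74% for RELB, 10.2% for NFKBIA and 0.357% for NFKB2, but 32% for REL, 32.3% for RELA and 37% for BCL10, and 2.85%, 0%, 4.26% and 14.9% for NFKB1, NFKBIE, NFKBIZ and MALT1. Counting positive relations only, the shares were 1.51% for NFKB1, 0.318% for NFKB2, 10.6% for REL, 10.4% for RELA, 3.67% for RELB, 4.19% for NFKBIA, 0% for NFKBIE, 2.3% for NFKBIZ, 13.8% for BCL10 and 6.76% for MALT1. RELB with NFKBIA (adjusted p 0.000342) and NFKB2 with NFKBIA (adjusted p 0.00109) were thus called for members related to fewer genes. The other 3 calls all involved REL. As 3 of its 9 pairs, they are not set apart from the 32% of all genes called with REL. RELB and NFKBIA passed in every alternative run except aspirates alone (19 dogs, adjusted p 0.519), and NFKB2 and NFKBIA likewise (0.660 in aspirates alone). The second NFKB2 probe set, which correlated with the first at r = 0.48, had only r = 0.12 with NFKBIA and 0.19 with RELB, so the NFKB2 relation was seen in 1 of 2 probe sets. RELB and NFKB2 themselves correlated at r = 0.36 and were not called (adjusted p 0.167).

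**Figure D2:**
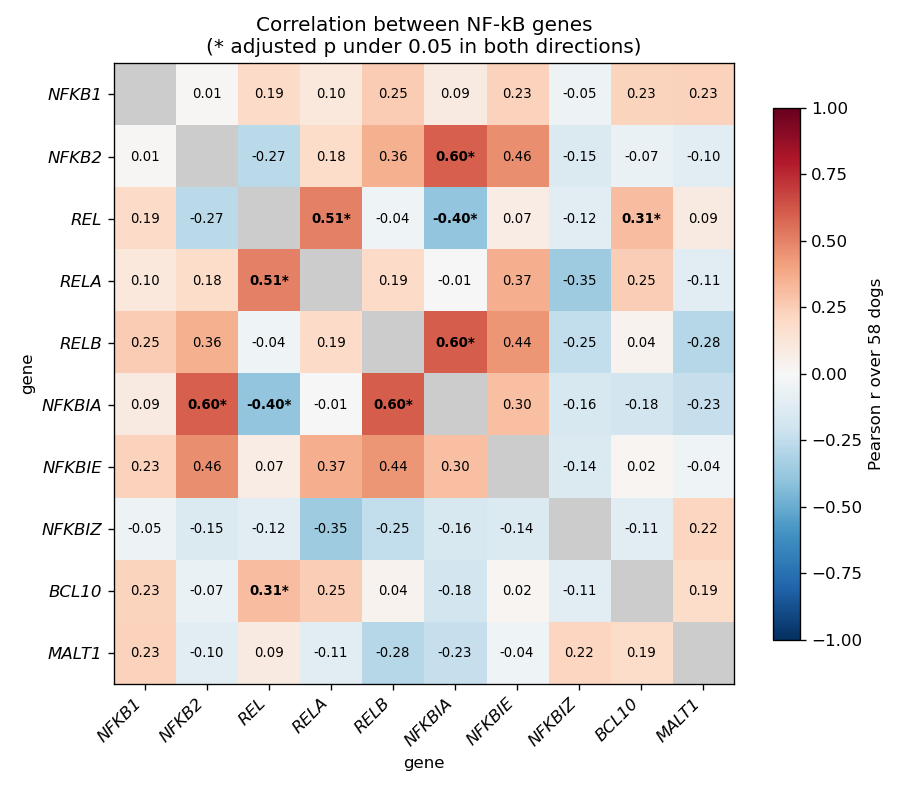
Pearson correlation (colour and number) between each pair of the 10 genes over 58 dogs, genes on both axes. Starred cells are the 5 pairs called in both directions, of which RELB with NFKBIA and NFKB2 with NFKBIA are the highest at 0.60.

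REL ran against NFKBIA. The dogs with the highest REL, 9.92 and 9.62, both static lymph node DLBCL, had NFKBIA at 12.00 and 12.02, below its median, and the correlation was r = -0.40 (rho -0.47, permutation p 0.0021 and 0.00028; r = -0.42 without the 2 farthest dogs). It was -0.53 in aspirates and -0.37 in lymph node. The pair was called with an adjusted p of 0.0194, and also with the tag control mean in the fit. It did not pass in aspirates alone (0.312), in lymph node alone (0.144) or without the 2 arrays of lowest mean correlation (0.0564). The slope was negative in all 11 alternatives, between -0.289 and -0.219. REL was called positively with 4 of 5 proliferation markers (median r 0.45), against 10.6% of all genes called positively and 21.4% negatively, while the median r of these markers with NFKBIA was -0.34; their part in the relation was not tested.

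REL and RELA were called (adjusted p 0.000838), but RELA had its gap and its weak signal. Among the 10 dogs above the gap the correlation was r = -0.62, and among the 48 dogs below it r = 0.21. These values are a description only: the split was made on RELA after its values were seen, which narrows its range on each side, and their difference was not tested. With the tag control mean in the fit, a choice made after the data were seen, the pair no longer passed (adjusted p 0.219), nor did it in aspirates alone (0.221). REL and BCL10 were called at an adjusted p of 0.0355 with r = 0.31 (rho 0.40, permutation p 0.018 and 0.0023; 0.39 without the 2 farthest dogs), which did not pass with the tag control mean (0.381) or the 3' minus 5' difference (0.0724) in the fit, nor in aspirates alone (0.296), lymph node alone (0.170), without the stratum (0.0548) or after a further quantile normalization (0.0905). The share of all genes called with REL was 4.11% once the tag control mean was in the fit, against 32% without it. For RELA it was 13.1% against 32.3%.

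**Figure D3:**
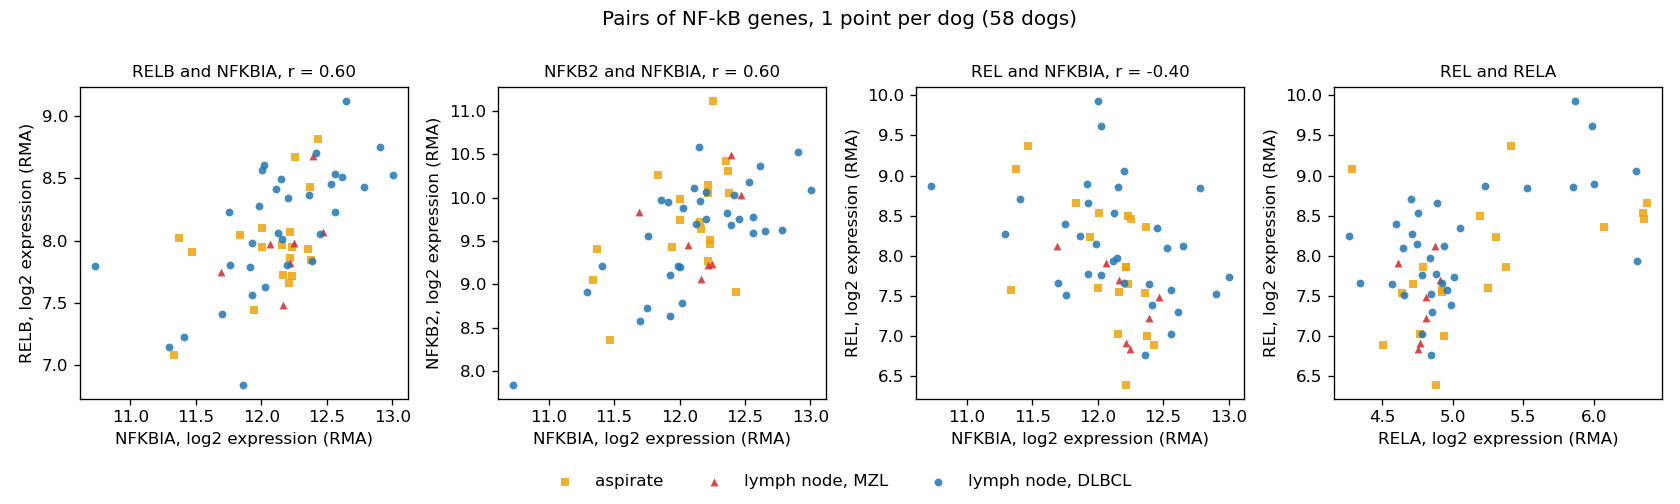
Log2 expression (RMA) of 4 pairs of genes, 1 point per dog, marked by specimen and diagnosis. RELB and NFKB2 are higher where NFKBIA is higher (r = 0.60 each), REL is lower there (r = -0.40), and in the last panel 10 dogs lie to the right of a gap in RELA.

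NFKBIE showed no call with any gene, so no pair with it could be called. Its highest correlations with members were those with NFKB2 (r = 0.46) and RELB (0.44), with adjusted p-values of 0.196 each. By permutation of r, adjusted over the pairs of members alone and without the stratum, both passed (p 0.0028 and 0.0052). RELA with NFKBIE (0.029), RELB with NFKB2 and RELA with NFKBIZ (0.033 each) passed too, while REL with BCL10 did not (0.081). By permutation of rho RELA with NFKBIE did not pass (0.17) and REL with BCL10 did (0.013). NFKBIZ, a nuclear IkB protein that works as a coactivator at some promoters, correlated negatively with 8 of the 9 other members, most with RELA (r = -0.35, adjusted p 0.0723), and this pair passed with the tag control mean in the fit (0.0340). BCL10 and MALT1, which act in 1 protein complex, correlated at r = 0.19 over all dogs (adjusted p 0.319) and at 0.37 without the 2 dogs farthest from the median.

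Other genes of the pathway were read from 5 lists. RELB was called positively with 8 of 26 NF-kB target genes and negatively with 0, against 3.67% of all genes called positively. Among them were the adhesion receptor gene CD44 (r = 0.54), the BCL2 family survival gene BCL2A1 (0.50) and the chemokine genes CCL5 (0.41) and CCL4 (0.40); for BCL2A1 the correlation was 0.11 in aspirates and 0.63 in lymph node. RELB was also called positively with 4 of 16 genes of linear ubiquitin and negative regulators, namely TNIP1 (r = 0.56), the A20 gene TNFAIP3 (0.52), the ribonuclease gene ZC3H12A (0.46) and the ubiquitin ligase gene RNF31 (0.40). MAP3K14, the kinase of the alternative route, was called with RELB at r = 0.48 (adjusted p 0.0109), and SYK, IKBKB and TRAF2 were called too. Without the 2 dogs farthest from the median of RELB, r was 0.35 for MAP3K14, 0.50 for CD44, 0.48 for BCL2A1, 0.36 for CCL5 and 0.35 for CCL4. The chemokine and macrophage genes are also expressed by other cells in a node: 1 of 9 macrophage markers was called with RELB, with a median r of 0.26, and the part of those cells in these relations was not tested.

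NFKBIA correlated positively with all 9 measured genes of alternative NF-kB receptors and kinase, with a median r of 0.18 against 0.030 over all genes. Of these, 2 were called, the receptor gene CD40 (r = 0.42) and the lymphotoxin gene LTA (0.42). Without the 2 dogs farthest from the median of NFKBIA, r was 0.33 for CD40 and 0.28 for LTA. Of the 26 target genes 1 was called with NFKBIA, BCL2A1 (r = 0.54, adjusted p 0.00184, and r = 0.46 without the same 2 dogs), against 4.19% of all genes called positively. NFKBIA was called negatively with 5.99% of all genes and with 2 of 5 proliferation markers, whose median r was -0.34, and positively with 2 of 9 macrophage markers (median r 0.29); their part in the NFKBIA relations was not tested. MALT1, the protease that cuts negative regulators of NF-kB, was called negatively with 4 of 26 target genes, among them BCL2A1 (r = -0.50), GADD45B (-0.49) and IER3 (-0.47). It was called positively with 1, RASSF2 (0.40). Without the 2 dogs farthest from the median of MALT1, r was -0.30 for BCL2A1, -0.34 for GADD45B, -0.41 for IER3 and 0.35 for RASSF2. MALT1 was called negatively with 8.09% of all genes and positively with 6.76%, and in both directions together with 14.9%, so 5 of 26 is not set apart from that background. NFKB1 was called positively with 3 of 16 genes of linear ubiquitin and negative regulators, namely BIRC2 (r = 0.59) and BIRC3 (0.44), both inhibitors of apoptosis, and N4BP1 (0.42), and negatively with 1, RBCK1 (-0.52), a part of the linear ubiquitin ligase. It was called with 1 of 26 target genes, PLEK (0.58). Without the 2 dogs farthest from the median of NFKB1, r was 0.42 for PLEK, 0.53 for BIRC2, 0.44 for BIRC3, 0.50 for N4BP1 and -0.56 for RBCK1. These values come from 1 probe set of NFKB1 and were not computed on its others. Of all genes 1.51% were called positively and 1.34% negatively with NFKB1.

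For each member the 3 genes of highest correlation over 58 dogs were also named. For RELB the first was BCL2, the survival gene, at r = 0.72 (0.77 in aspirates and 0.71 in lymph node), followed by FBXO6 and EGLN2 at 0.72 each. For NFKB2 it was the signalling adaptor gene TRAF2 at r = 0.71 (0.80 in aspirates and 0.68 in lymph node), then IL27RA and MED12 at 0.64 each. TRAF2 was called with RELB (r = 0.43) and NFKBIA (0.45) too, and negatively with REL (-0.32). For NFKBIA they were VAMP5 (0.74), TMEM134 (0.65) and RPL36AL (0.62). For NFKB1 the first was the lysosomal enzyme gene MANBA at r = 0.69, with 0.53 in aspirates and 0.81 in lymph node. MANBA is the neighbour of NFKB1 in a RefSeq gene table (assembly UU_Cfam_GSD_1.0), and no other member had a neighbour in that table among its 3 genes. The next for NFKB1 were KLHL6 (0.62) and NSF (0.60). These NFKB1 relations come from 1 probe set. Its other probe sets correlated with that one at r = 0.81 and -0.26, and the relations were not computed on them.

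REL was nearest to KAT7, PRPS2 and CBFB at r = 0.69 each. RELA was nearest to CLPTM1 (0.91), the nuclear IkB gene BCL3 (0.88) and BTBD2 (0.87), and within the 48 dogs below its gap these were 0.71, 0.69 and 0.71. In the 10 dogs above the gap they were 0.39, 0.68 and 0.22. CLPTM1 lies next to RELB in the same gene table, and its correlation with RELB was 0.20. The B-cell receptor genes CD79A and CD79B correlated with RELA at 0.76 and 0.74, and at 0.67 and 0.75 in those 48 dogs. Above the gap they were at 0.12 and 0.089 in 10 dogs. The values on each side of the gap are a description only, and their difference was not tested. BCL10 was nearest to SNX10 (0.81), TSNAX and PRPF18 (0.80 each), but without the 2 dogs farthest from the median these were between 0.56 and 0.58. MALT1 was nearest to USP33 (0.65), STRADB (0.64) and WASHC5 (0.62), and NFKBIZ to SLC7A1 (0.62), EDNRA (0.59) and TRMT13 (0.57). The highest for NFKBIE, the kinase gene JAK3 (0.54), had an adjusted p of 0.183.

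Germinal centre B cells keep mutating their IGHV gene, and the first comparison asks whether tumours with ongoing mutation differ from static ones. Limma called 0 of the 10 members, and 0% of all 15115 genes, with 7.13% at an unadjusted p under 0.05, where 0 members lay. REL averaged 8.19 ± 0.76 (SD, n = 26) in static dogs and 7.77 ± 0.66 (n = 27) in ongoing dogs. Its difference, adjusted for the stratum by limma as are all differences in this comparison, was 0.33 ± 0.20 (SE, adjusted p 0.732). The mean of 5 proliferation markers was 10.43 ± 0.46 (9.66 to 11.35) in static and 10.04 ± 0.49 (8.97 to 10.89) in ongoing dogs, with 5 of 5 higher and 0 passing, and their part in the REL difference was not tested. BCL10 averaged 10.44 ± 0.41 in static and 10.20 ± 0.54 in ongoing dogs (0.26 ± 0.14, adjusted p 0.718), and 0.15 without the 2 arrays of lowest mean correlation. NFKBIA averaged 12.02 ± 0.53 in static and 12.22 ± 0.24 in ongoing dogs (-0.22 ± 0.12, adjusted p 0.718). The other 7 members differed by between -0.14 and 0.086 on the probe sets used. A further MALT1 probe set differed by -0.22 ± 0.18 (adjusted p 0.791 over 29254 probe sets). Of the 9 measured genes of alternative NF-kB receptors and kinase, 8 were lower in static dogs, with a median difference of -0.22 against -0.0047 over all genes; none passed. LTB, a lymphotoxin chain, differed by -0.56 ± 0.21 and CD40 by -0.24 ± 0.084, both with an adjusted p of 0.670. NF-kB target genes had a median difference of 0.016, with 14 of 26 higher.

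The spread of the members between dogs was also compared by IGHV status, a test chosen after the values were seen. NFKBIA varied more in static dogs: its mean absolute deviation from the mean of its group and stratum, scaled for group size, was 0.437 in static (n = 25, since the 1 static MZL dog has no deviation) and 0.194 in ongoing dogs (n = 27), a stratum-adjusted difference of 0.22 ± 0.072 (SE, limma, unadjusted p 0.00296, adjusted p 0.321). The 3 lowest NFKBIA values, 10.73, 11.29 and 11.34, and the 2 highest, 12.90 and 13.00, were all in static dogs. NFKB2 had 0.618 in static and 0.345 in ongoing dogs (unadjusted p 0.00943, adjusted p 0.398). Of all 15115 genes 0% passed, with 8.86% at an unadjusted p under 0.05, so neither member stands as a result. Without the arrays that stood apart the unadjusted p was 0.00465 for NFKBIA and 0.00684 for NFKB2.

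The status difference was also compared between specimens. For BCL10 the values were 10.10, 10.74 and 11.04 (lowest, median, highest) in static aspirates (n = 7) and 7.73, 10.22 and 10.55 in ongoing aspirates (n = 11), while lymph node held 9.68, 10.35 and 10.97 in static (n = 19) and 10.01, 10.33 and 10.59 in ongoing dogs (n = 16). The difference was thus larger in aspirates by 0.69 ± 0.27 (SE), at an unadjusted p of 0.0151 and an adjusted p of 0.455, and by 0.42 without the 2 arrays of lowest mean correlation. BCL10 against the 3' minus 5' difference gave an r that was -0.93 in aspirates and -0.18 in lymph node. The aspirate value includes the array with a 3' minus 5' difference of 1.95 and a BCL10 of 7.73, and was not computed without it. Over all dogs r was -0.43 and rho -0.50 (permutation p 0.0178 and 9e-05), with an adjusted p of 0.107 for r. Without the 2 dogs farthest from the median of the 3' minus 5' difference r was -0.48. The part of the 3' minus 5' difference in the BCL10 difference between aspirates was not tested. Of all genes 0.0132% passed and 0 members did, with 9.1% of genes and 1 member, BCL10, at an unadjusted p under 0.05. REL differed by 0.72 in aspirates alone and 0.12 in lymph node alone, with an adjusted p of 0.687 for the difference between specimens.

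Between MZL and DLBCL in lymph node, limma called 0 members and 0% of all genes, with 1.16% at an unadjusted p under 0.05. REL was at 6.84, 6.92, 7.23, 7.49, 7.70, 7.91 and 8.12 in the 7 MZL dogs, and at 6.76, 8.11 and 9.92 (lowest, median, highest) in the 32 DLBCL dogs. The MZL values lay inside the DLBCL range, 6 of 7 below its median. The difference was -0.69 ± 0.28 (SE), a fold of 0.618, at an unadjusted p of 0.0167 that ranked 50 among 15115 genes and an adjusted p of 1.00. A two-sided permutation test of this value, chosen after it was seen, gave p = 0.0196. It was -0.61 (unadjusted p 0.0945) among dogs of known IGHV status with status as a covariate. RELA (-0.26 ± 0.20) and MALT1 (-0.20 ± 0.16) were the next members, and none passed. NFKB2 (0.030), NFKBIA (0.039) and BCL10 (0.066) had differences above 0, but with status as a covariate those of NFKB2 and NFKBIA were -0.29 and -0.13. The MZL group held 1 static, 4 ongoing and 2 ND dogs.

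Aspirates and lymph node gave 0 member calls, against 0.119% of all genes (0.0926% higher and 0.0265% lower in aspirates); 0 members and 11.8% of all genes had an unadjusted p under 0.05. On the probe sets used, the differences lay between -0.13 and 0.14, leaving aside RELA (0.21 ± 0.15, SE, adjusted p 0.626), whose signal lay within the range of the tag controls. The second NFKB2 probe set differed by 0.38 ± 0.22 (limma, adjusted p 0.477 over 29254 probe sets). The further MALT1 probe sets differed by -0.17 and -0.21 (adjusted p 0.748 and 0.524). Across the 5 pathway lists no gene passed; the nearest were the target gene MYC (-0.62 ± 0.17, adjusted p 0.0894) and the deubiquitinase gene OTULIN (-0.27 ± 0.077, adjusted p 0.106).

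**Figure D4:**
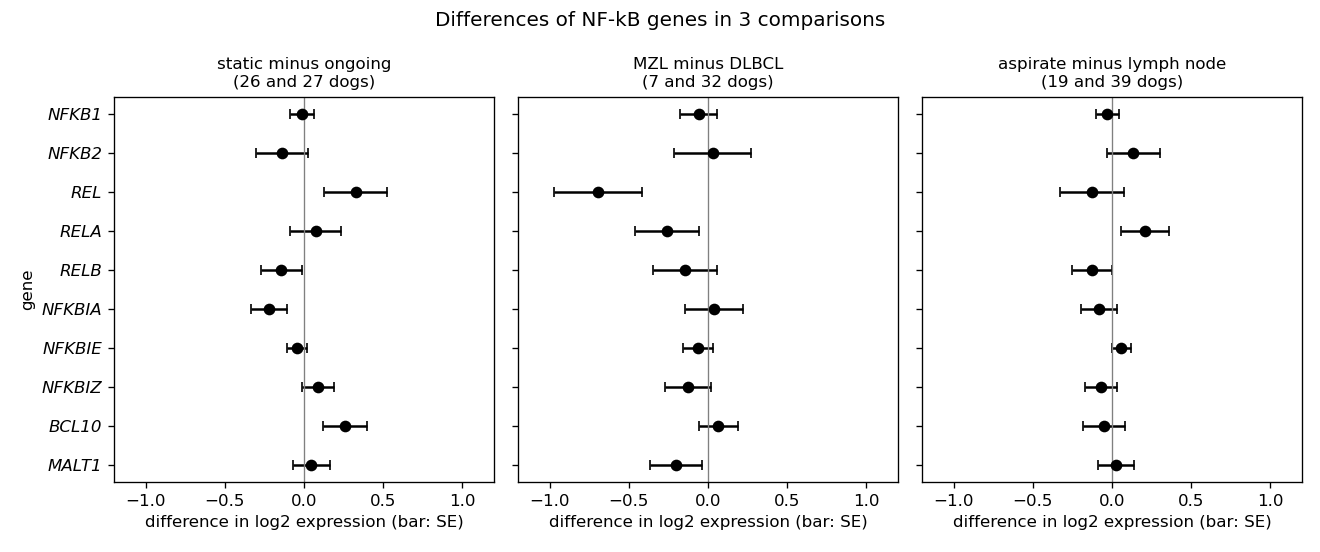
Difference in log2 expression of the 10 genes (x axis, bar: SE) for static minus ongoing, MZL minus DLBCL and aspirate minus lymph node. REL in MZL is the farthest from 0, at -0.69, and no gene passed the adjusted threshold in any panel.

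Survival was related to expression by Cox score tests with specimen as stratum. For PFS 0 members passed and 0% of all genes did, with 2.83% of genes and 1 member at an unadjusted p under 0.05. For OS 0 members passed, against 0.00662% of all genes, with 3.99% of genes and 1 member at an unadjusted p under 0.05. MALT1 had a PFS hazard ratio of 0.428 per log2 unit (95% interval 0.185 to 0.988, unadjusted p 0.0467, adjusted p 1.00), The hazard ratio was 1.07 (0.291 to 3.91) in aspirates alone and 0.277 (0.100 to 0.766) in lymph node alone; that the specimens differ was not tested. Its other 2 probe sets gave 0.551 (0.330 to 0.920) and 0.541 (0.257 to 1.14) over all dogs. In aspirates alone they gave 0.674 (0.313 to 1.45) and 1.33 (0.522 to 3.37), and in lymph node alone 0.475 (0.242 to 0.932) and 0.282 (0.107 to 0.739). None of the 3 passed in lymph node, with adjusted p-values of 0.812 for the probe set used and 0.885 and 0.774 for the others over 29254 probe sets. For OS the MALT1 hazard ratio was 0.520 (0.246 to 1.10).

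REL had an OS hazard ratio of 1.59 (1.00 to 2.51, unadjusted p 0.0475, adjusted p 1.00) and a PFS hazard ratio of 1.45 (0.950 to 2.22). For OS the score z was 1.98, and 1.34 (unadjusted p 0.180) with IGHV status as a covariate. That fit also left out the ND dogs, so the 2 changes cannot be told apart. RELB had hazard ratios of 1.60 (0.822 to 3.11) for PFS and 1.76 (0.816 to 3.81) for OS. NFKBIA, at 1.26 (0.572 to 2.76) and 1.16 (0.503 to 2.66), and RELA, at 1.01 (0.592 to 1.71) and 1.05 (0.600 to 1.83), had intervals wide on both sides of 1. Among the pathway lists the cyclin gene CCND2 had the smallest unadjusted p for both outcomes (z -2.90 for PFS and -3.22 for OS), followed for PFS by the kinase gene PIM1 (z 2.60); neither passed.

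**Figure D5:**
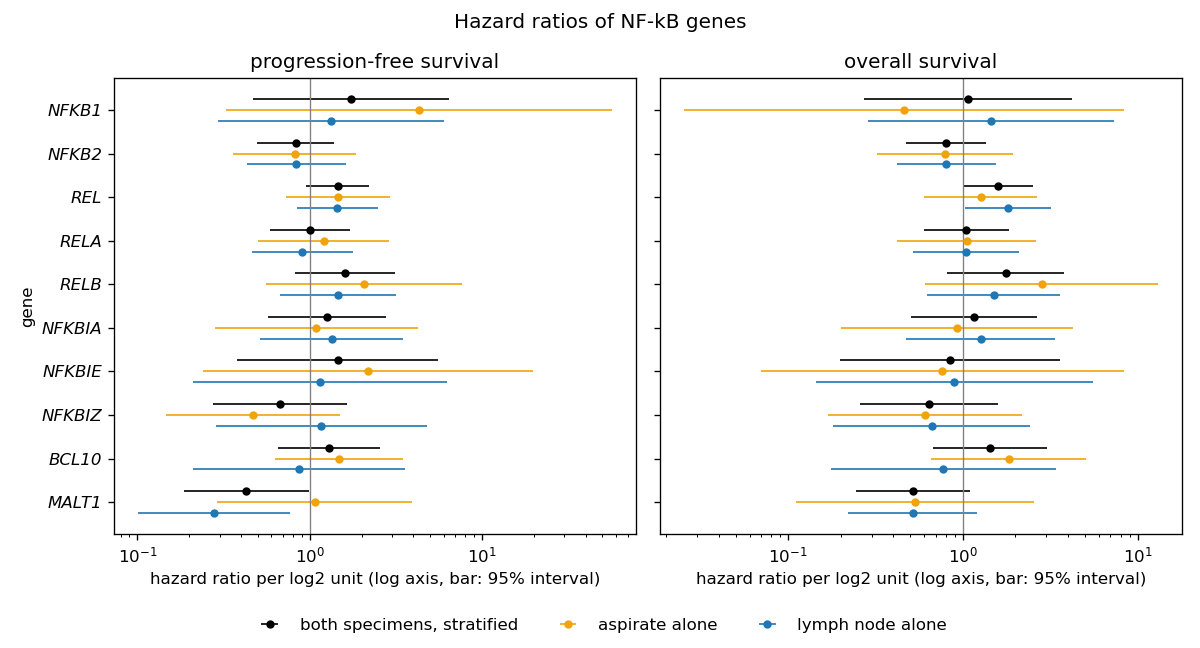
Hazard ratio per log2 unit of the 10 genes (log x axis, bar: 95% interval) for PFS and OS, for all dogs (stratified), for aspirates and for lymph node. MALT1 for PFS lies at 0.428 over both specimens, at 1.07 in aspirates and at 0.277 in lymph node.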

How the data were processed

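RNA was extracted with Trizol and hybridised to Affymetrix arrays, per the labels' protocols. Log2 values for 43035 probe sets were deposited, made by the authors with Affymetrix Expression Console and RMA, per the submitters' processing notes; versions, scan dates and the genome build are not given in the sources used here. A platform annotation gave 1 symbol to 29264 probe sets, of which 29254 were used, and several to 439; 111 probe sets were controls. A gene with several probe sets was represented by its brightest on average. No pair of arrays looked repeated (closest r 0.990). Each array came from a different dog.

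Models used limma 3.58.1 in R 4.3.3, two-sided, with Benjamini-Hochberg adjustment over all genes at 0.05: IGHV status with a 3-level stratum over 53 dogs, status by specimen, diagnosis and specimen. Cox score tests (Breslow ties) used survival 3.8.3. Events were taken as indicator 1, because the 8 dogs at PFS indicator 0 had PFS and OS times that were the same. Correlations had 100000 permutations. The fits were tested on simulated data. Figures used matplotlib 3.10.9. Members and lists were chosen with earlier results of these data known. Named genes were the members, their 3 nearest genes, and up to 4 genes per list with the smallest p in a comparison. MAP3K7, TRAF6, TRAF1 and IRF4 had no probe set named here. The annotation's gene ID for NFKBIE was not matched in the RefSeq table, so its symbol was used.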

Additional observations from a re-analysis of the deposited data

Results flagged for a closer look

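Within groups of 4 to 10 dogs, 30 sets of member values were searched for a single dog far from the others, of which chance gives about 1 in 20, and 3 were found. NFKB1 was 11.37 in 1 static aspirate (n = 7), where the next value was 10.89 and the lowest 10.66. RELA was 5.41 in 1 ND dog (n = 5), where the next value was 4.81 and the lowest 4.76. BCL10 was 9.92 in 1 ND dog (n = 5), where the next value was 10.31 and the highest 10.45. No comparison of groups used the ND dogs' status, though these dogs entered the specimen, diagnosis, outcome and correlation fits.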

How the results depend on the processing

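Of 454 recomputed member differences and outcome scores, 420 kept their sign and stayed short of the threshold, 34 turned sign, and 0 passed (lowest adjusted p 0.238, limma and Cox tests). Of 54 recomputed pair slopes 41 passed, 13 did not, and 0 turned sign; 3 pairs were called in lymph node only and 0 in aspirates only. The 2 added covariates, the RELA split, the correlations of other probe sets, the permutation test of REL and the test of spread were chosen after seeing the data. RELA has no value without the 25% of genes with the lowest mean, and leaving out the 2 arrays of lowest mean correlation does not apply to diagnosis, as both are aspirates. No paired analysis was possible because each dog gave 1 array.

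Counts of all genes called moved most for specimen (18): 6 against lymph node DLBCL only, 0 by rank-sum test, 58 with the mean of all probe sets, 37 with quantile normalization, and 10 without either set of 2 arrays. IGHV status called 6 genes in aspirates only, and status by specimen 1 with quantile normalization or without either set of 2 arrays. PFS called 1 in lymph node only, with status as covariate or with the probe-set mean. All fits with status as covariate left out the ND dogs. OS called 3 in lymph node only, 2 with status as covariate, the probe-set mean or quantile normalization, and 0 in aspirates only, without strata or without dim genes.

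The cause of the turned values was not tested. Static minus ongoing: RELA -0.059 (lymph node) and -0.041 (lymph node DLBCL), BCL10 -0.064 (lymph node DLBCL), NFKB1 0.088 and NFKBIE 0.051 (aspirates), NFKB1 0.012 (no stratum) and 0.011 (probe-set mean), MALT1 -0.034 (probe-set mean) and -0.0045 (without the 2 arrays of lowest correlation). Status by specimen, without those 2 arrays: NFKBIZ -0.031, MALT1 -0.097. MZL minus DLBCL: NFKB2 -0.29 and NFKBIA -0.13 (status as covariate), NFKB2 -0.020 (probe-set mean). Aspirate minus lymph node: MALT1 -0.011 (DLBCL only), -0.12 (probe-set mean) and -0.050 (without the 2 arrays of lowest correlation), BCL10 0.060 without those 2 and 0.087 without the 2 of highest 3' minus 5' difference. PFS z: RELA -0.28, NFKBIZ 0.21 and BCL10 -0.20 (lymph node), MALT1 0.099 (aspirates), RELA -0.069 (no strata), -0.014 and -0.078 (without either set of 2 arrays). OS z: BCL10 -0.35 (lymph node), NFKB1 -0.53 and NFKBIA -0.099 (aspirates), NFKBIE 0.0049 (status as covariate), NFKB1 -0.12 (quantile), NFKBIE 0.023 and BCL10 -0.078 (without the 2 of lowest correlation), RELA -0.098 (without the 2 of highest 3' minus 5' difference).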

Other observations

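The 2 further NFKB1 probe sets disagreed: their correlation with the one used was 0.81 and -0.26. The 2 further MALT1 probe sets had 0.88 and 0.54, and the second BCL10 probe set 0.95.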
